A study of Nothobranchius furzeri with 15 samples.

Results

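In the GRZ-AD strain of Nothobranchius furzeri, a short-lived annual killifish, the gene oxr1 gave 1 circular RNA (circRNA) in a table of 1810. It was found by the host symbol that the table lists, and 1 row carried it. The gene had been chosen by its measured circular reads in these libraries: its mean circular level in brain, among the highest of all circRNAs, and the order of that level over the ages. Circular levels and circular shares of oxr1 in brain are therefore given as a description with no test, while its linear reads and its muscle reads were tested. Total RNA without ribosomal RNA had been sequenced from brain, with 3 libraries at each of 3.5, 8.5 and 14 weeks, and from muscle, with 2 libraries at each of those ages. The labels name no treatment and no mutation, and they do not say whether each library came from a separate fish, so the spread between libraries may be technical. In the authors' deposited comparisons the ages are called young, adult and old.

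OXR1 stands for oxidation resistance 1. It belongs to the TLDc proteins, a family named after the domain at their carboxyl end, and in mice the loss of Oxr1 makes cerebellar neurons die and brings ataxia. In humans, loss of OXR1 goes with cerebellar atrophy and seizures, and TLDc proteins are known to bind the V-ATPase, the proton pump that acidifies lysosomes and synaptic vesicles. A circRNA is a loop that forms where splicing runs backward and connects a downstream splice site with one upstream, and a read across that back-splice junction is counted as circular. Loops have no free ends, resist exonucleases, and are abundant in nervous tissue of many animals.

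Libraries held 2095 to 4400 circular reads in brain and 1343 to 4269 in muscle, beside 80405 to 135698 linear reads in brain and 76515 to 122098 in muscle. The tissue labels matched the marker genes. Linear reads at 26 positions of 14 neuronal hosts made up 4.94% to 6.43% of the linear reads in brain libraries and 0.0135% to 0.0562% in muscle libraries. Those at 15 positions of 8 skeletal muscle hosts made up 0.132% to 1.11% in brain and 12.7% to 14.9% in muscle. The brain libraries differed in this by age. At 3.5 weeks the muscle positions held 0.237%, 1.10% and 1.11% of the linear reads in libraries 1, 2 and 3, and at 8.5 and 14 weeks 0.132% to 0.186%. Libraries 2 and 3 of 3.5 weeks thus stood apart from the other 7. Of 14 muscle positions tested for 14 against 3.5 weeks in brain, 8 were lower in edgeR and 0 higher. Over all 1753 positions, 2.85% passed in that step. Some of the 8 share a host, so they are not independent. Neuronal positions held 4.94% to 5.46% at 3.5 weeks and 5.62% to 6.43% at the later ages, and 0 of 26 passed in edgeR for that step. Both measures move with the comparisons of oxr1 that use 3.5 weeks, and their part in them was not tested. Values without libraries 2 and 3 are therefore given beside the main fits, an exclusion chosen after seeing the data. They rest on a single library of that age. They are not given for library sizes from circular reads, for shares over the linear reads of another position, or for tissue differences at single ages and their interaction. The lists of erythrocyte and immune markers had no host in the table. Fewer cells of a type and less RNA per cell cannot be told apart in such tissue libraries.

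The oxr1 circRNA lay on chromosome 3 from 29021173 to 29155652, on the minus strand, in the coordinates of the deposited table, whose genome build is not given in the sources used here. The table gives its region as intergenic at the start and exon at the end, so that the lower coordinate lay outside annotated exons and the higher one within an exon. Its ends were 134480 bp apart, the 5th longest of all circRNAs listed, where the median was 5096.5 bp. Of the 7 circRNAs that spanned 100 kb or more, oxr1 had 399 circular reads in brain and 39 in muscle, while the other 6 had 0 to 7 in brain. The long circRNAs with muscle reads were 2 from cadm1a, a cell adhesion gene, with 14 and 11 reads there. Among the 39 circRNAs with 100 or more brain reads, oxr1 was the longest, and the next, LOC107394695.1, spanned 75539 bp. In that set the median was 7866 bp. The span is the distance on the genome, and the length of the spliced loop was not measured.

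**Figure D1:**
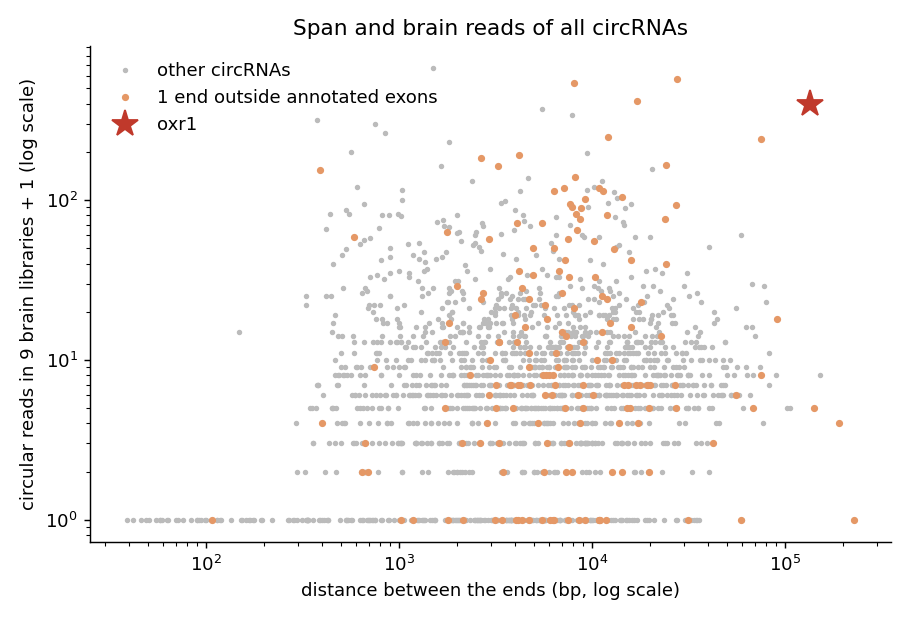
Distance between the ends of each of the 1810 circRNAs (bp, log scale) against its circular reads in the 9 brain libraries plus 1 (log scale). Orange points have 1 end outside annotated exons, and the star, oxr1 at 134480 bp and 399 reads, stands at the upper right with no other circRNA near it.

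Exactly 1 end outside annotated exons is a feature that 168 circRNAs (9.28%) shared, and oxr1 ranked 4th among them by brain reads. Both ends were exonic in 80.9% of all circRNAs listed. A second circRNA, listed with no host, began at the same lower coordinate, 29021173, and ended at 29029939, so that it lay within the span of oxr1. It had 3 circular reads, all in brain library 3 of 8.5 weeks, and 0 in muscle. Its linear reads were more numerous than those of oxr1, at 1169 in brain against 527, and at 135 in muscle against 50. Both positions share their start, so part of the same linear reads may be counted at both. The nearest circRNAs on either side came from LOC107378858, which ended 206 kb below oxr1, and from rims2, a presynaptic scaffold gene, which began 628.7 kb above it. RefSeq, in its gene table for NfurGRZ-RIMD1 (taken for names and order, with no coordinates), lists an oxr1a and holds no other symbol that begins with oxr1. LOC107378858, oxr1a and rims2a come in that order there too.

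In brain, the circular reads of oxr1 were higher at both later ages than at 3.5 weeks, while the linear reads at the same position overlapped between ages. Libraries 1, 2 and 3 held 37, 25 and 32 circular reads at 3.5 weeks, 46, 27 and 55 at 8.5 weeks, and 73, 61 and 43 at 14 weeks. Scaled to the linear library size (CPM), the circular levels were 314, 274 and 281 at 3.5 weeks, 449, 341 and 497 at 8.5 weeks, and 544, 444 and 472 at 14 weeks. Every library of 8.5 and of 14 weeks was thus above every library of 3.5 weeks, whereas those of 8.5 and 14 weeks overlapped. The means were 290 ± 21.0, 429 ± 79.9 and 487 ± 51.5 CPM at 3.5, 8.5 and 14 weeks (SD, n = 3 each). All circRNAs together separated in the same way. Their circular reads made up 2.22% to 2.38% of the circular and linear reads at 3.5 weeks and 2.46% to 3.40% later. How many single circRNAs did so was not counted.

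The fit over all brain circRNAs (edgeR quasi-likelihood, library sizes from linear reads) put the log2 change of the circular reads at 0.75 for 14 against 3.5 weeks (SE 0.34), which is 1.68-fold. For 8.5 against 3.5 weeks it was 0.57 (SE 0.34), and for 14 against 8.5 weeks 0.18 (SE 0.33). Without libraries 2 and 3 of 3.5 weeks, which had the higher muscle marker shares, these were 0.66 (SE 0.47) for 14 against 3.5 weeks and 0.47 (SE 0.47) for 8.5 against 3.5 weeks. Library 1, at 314 CPM the highest of its age, was still below all later libraries. CircRNAs as a class were also higher at the later ages: the median log2 change of the 639 tested was 0.34 for 14 against 3.5 weeks and 0.47 for 8.5 against 3.5 weeks. For 14 against 3.5 weeks, oxr1 stood 0.40 above that median, and 35.7% of the circRNAs tested had a larger change. The share of brain circRNAs past an adjusted p of 0.05 was 0.156% for 14 against 3.5 weeks and 0.156% for 8.5 against 3.5 weeks, 1 circRNA each. Without libraries 2 and 3 of 3.5 weeks the medians were 0.66 for 14 against 3.5 weeks and 0.82 for 8.5 against 3.5 weeks. Relative to these medians, oxr1 was at -0.002 and -0.35, so it no longer stood above them. The medians had risen from 0.34 and 0.47, while oxr1 itself went from 0.75 to 0.66 and from 0.57 to 0.47. These medians rest on a single library of 3.5 weeks, and why they moved was not tested.

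Taken as a part of the circular reads of its own library, oxr1 made up 1.40%, 1.13% and 1.13% in the 3 libraries of 3.5 weeks, 1.32%, 1.29% and 1.38% at 8.5 weeks, and 1.84%, 1.39% and 1.95% at 14 weeks. On this scale library 2 of 14 weeks was below library 1 of 3.5 weeks, so these ages overlapped. All libraries of 14 weeks were above those of 8.5 weeks, though the nearest pair, at 1.39% and 1.38%, lay close together. How many other circRNAs separated on this scale was not counted. With library sizes from the circular reads (TMM), the log2 change of oxr1 was 0.51 (SE 0.33) for 14 against 3.5 weeks and 0.19 (SE 0.34) for 8.5 against 3.5 weeks. The medians of all circRNAs were then 0.10 and 0.11. Relative to the median, and with all brain libraries kept, the 14 against 3.5 week value was 0.41, beside the 0.40 above. Other library sizes shift all brain circRNAs of a step nearly alike, so this nearness was fixed in advance and is no second support.

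**Figure D2:**
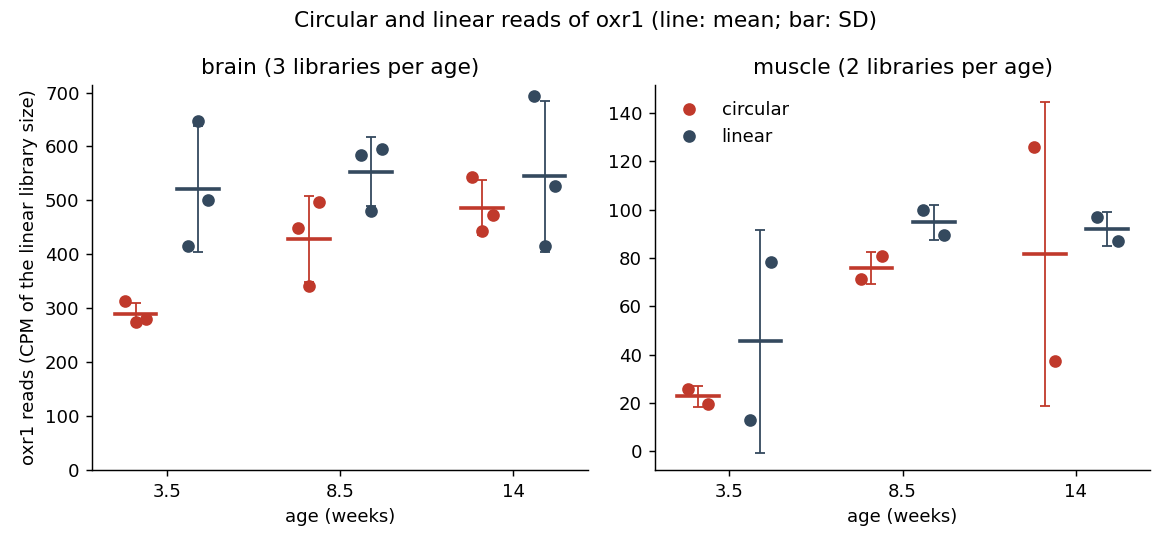
Circular (red) and linear (dark) reads of oxr1 per library, in CPM of the linear library size of each tissue, at 3.5, 8.5 and 14 weeks, with mean (line) and SD (bar); the vertical scales of brain and muscle differ. In brain the circular points of 3.5 weeks (274 to 314) lie below all later ones, while the linear points of all ages lie between 415 and 693.

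The linear reads listed for the position of the oxr1 circRNA, whose exact definition no source used here gives, numbered 49, 59 and 57 in the brain libraries of 3.5 weeks, 60, 38 and 66 at 8.5 weeks, and 93, 57 and 48 at 14 weeks. In CPM the means were 521 ± 117, 554 ± 64.3 and 545 ± 140 at the 3 ages (SD, n = 3 each), and the ages overlapped at every step. None of the 3 differences passed. For 14 against 3.5 weeks the ratio was 1.06, with a 95% interval from 0.767 to 1.45 (log2 0.08, SE 0.22, edgeR adjusted p = 0.923 over 1753 positions), while 2.85% of the positions tested passed. For 8.5 against 3.5 weeks it was 1.08 (0.778 to 1.49; edgeR adjusted p = 0.873, 2.62% called), and for 14 against 8.5 weeks 0.980 (0.711 to 1.35; edgeR adjusted p = 0.999, 0% called). Without libraries 2 and 3 of 3.5 weeks, the log2 change was 0.42 for 14 against 3.5 weeks (SE 0.30, edgeR adjusted p = 0.751) and 0.44 for 8.5 against 3.5 weeks (SE 0.30, edgeR adjusted p = 0.715), since library 1 had the lowest linear level of its age, 415 CPM. At the second position with the same start, unannotated.92, the linear reads did not pass either, with a log2 change of 0.08 (SE 0.18, edgeR adjusted p = 0.907) for 14 against 3.5 weeks.

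The circular share is the percentage of circular reads among the circular and linear reads of a position. Libraries 1, 2 and 3 had shares of 43.0%, 29.8% and 36.0% at 3.5 weeks, 43.4%, 41.5% and 45.5% at 8.5 weeks, and 44.0%, 51.7% and 47.3% at 14 weeks. All libraries of 14 weeks were above all of 3.5 weeks, though the nearest pair, at 44.0% and 43.0%, lay close together, and those of 8.5 weeks overlapped both other ages. The share over all circRNAs also separated 14 from 3.5 weeks, at 2.46% to 3.14% against 2.22% to 2.38%. How many single circRNAs separated in their share was not counted. Pooled over libraries, the share of oxr1 was 36.3% at 3.5 weeks (exact binomial 95% interval 30.4% to 42.5%), 43.8% at 8.5 weeks (38.1% to 49.7%) and 47.2% at 14 weeks (42.1% to 52.4%). These intervals cover counting error only and leave out the spread between libraries.

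Fitted with both read types of each library as a pair, the circular to linear ratio of oxr1 changed by 0.68 on the log2 scale for 14 against 3.5 weeks (SE 0.64), by 0.44 for 8.5 against 3.5 weeks (SE 0.65) and by 0.23 for 14 against 8.5 weeks (SE 0.63). The medians of all circRNAs tested were 0.31, 0.41 and -0.12 for these steps. Without libraries 2 and 3 of 3.5 weeks, which had the lowest shares of all 9, the first median was 0.54 and the second 0.68. The change of oxr1 was then 0.26 (SE 0.83) for 14 against 3.5 weeks and 0.03 (SE 0.83) for 8.5 against 3.5 weeks, below both medians. These errors come from a dispersion shared over circRNAs and are wider than the spread of oxr1 itself, whose log2 ratio varied between libraries of an age with an SD of 0.28. The share of circRNAs called in this edgeR fit was 0% for 14 against 3.5 weeks, with 52 of 639 at an unadjusted p under 0.05 and 0 called by a beta-binomial test. In the authors' deposited table of brain comparisons, the p-value of oxr1 is 0.0766 for adult against young and 0.407 for old against adult. Of the circRNAs listed there, 37 of 251 and 18 of 296 are under 0.05. These p-values rest on the brain reads by which oxr1 was chosen, so they are given as a description only.

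The level of the share depended on which linear reads it was set against. With the linear reads of the second circRNA that starts at the same base, the pooled share in brain was 25.4% in place of 43.1%. By age it was 26.1%, 18.2% and 18.7% in the libraries of 3.5 weeks, 22.7%, 26.2% and 25.7% at 8.5 weeks, and 30.7%, 30.3% and 27.0% at 14 weeks. These shares hold the same circular reads of oxr1, so they are no separate support. The libraries of 14 weeks were above those of 3.5 weeks, though the nearest pair, at 27.0% and 26.1%, lay close together. Such a share was formed for oxr1 alone, so how many circRNAs would separate in it was not counted. The log2 change for 14 against 3.5 weeks was 0.66 (SE 0.66), beside a median of 0.31 over all circRNAs tested.

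**Figure D3:**
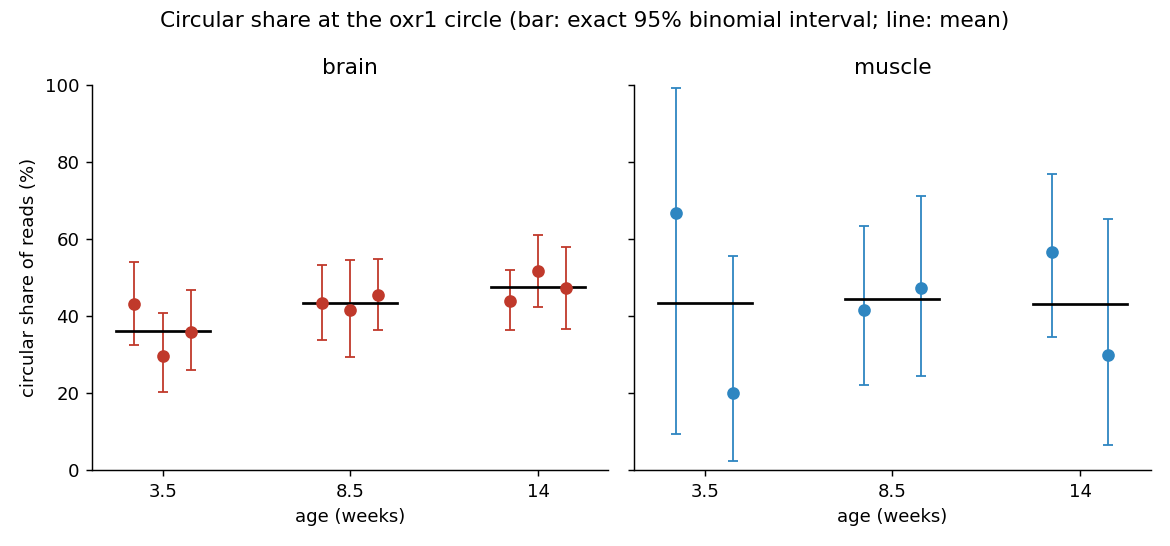
Circular share at the oxr1 circRNA per library (%), with exact 95% binomial intervals that cover counting error only and the mean of each age (line), in brain and in muscle. Brain shares lie between 29.8% and 51.7%, and muscle shares scatter from 20.0% to 66.7% with wide intervals.

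Among brain circRNAs, oxr1 was the 5th most abundant over the 9 libraries, with 402 ± 100 CPM (SD, n = 9). Above it stood klc1, a kinesin light chain gene, at 541 ± 117, and eif3l, a translation initiation factor subunit, at 433 ± 148. Below it came LOC107395747 at 374 ± 189 and LOC107376304 at 352 ± 50.2. All 4 neighbours lay within an SD of oxr1 or of themselves except klc1. By age, oxr1 ranked 6th at 3.5 weeks, 5th at 8.5 weeks and 4th at 14 weeks, where bace1, klc1 and 1 other stood above it. By linear reads its position ranked 460th in brain. Its pooled share of 43.1% was 17th among the 39 circRNAs with 100 or more brain reads, whose median was 39.5%.

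The brain circRNAs most like oxr1 were sought by the root mean square difference of log2(CPM + 10) over the 9 brain libraries, each centred on its own mean. Among 38 others with 100 or more reads, this distance had a median of 0.61 and a maximum of 1.03. Closest were mbd2, which encodes a methyl-CpG binding protein (0.33), LOC107387794 (0.36), ptprz1b.1 of a receptor phosphatase (0.38), caskin1 of a synaptic scaffold protein (0.40) and nsun4.1 of a mitochondrial RNA methyltransferase (0.41). Their age profiles differed. The circRNA of caskin1 had 46.2, 118 and 140 CPM at 3.5, 8.5 and 14 weeks and nsun4.1 had 267, 330 and 350, whereas mbd2 had 104, 118 and 115 and LOC107387794 had 666, 726 and 665.

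**Figure D4:**
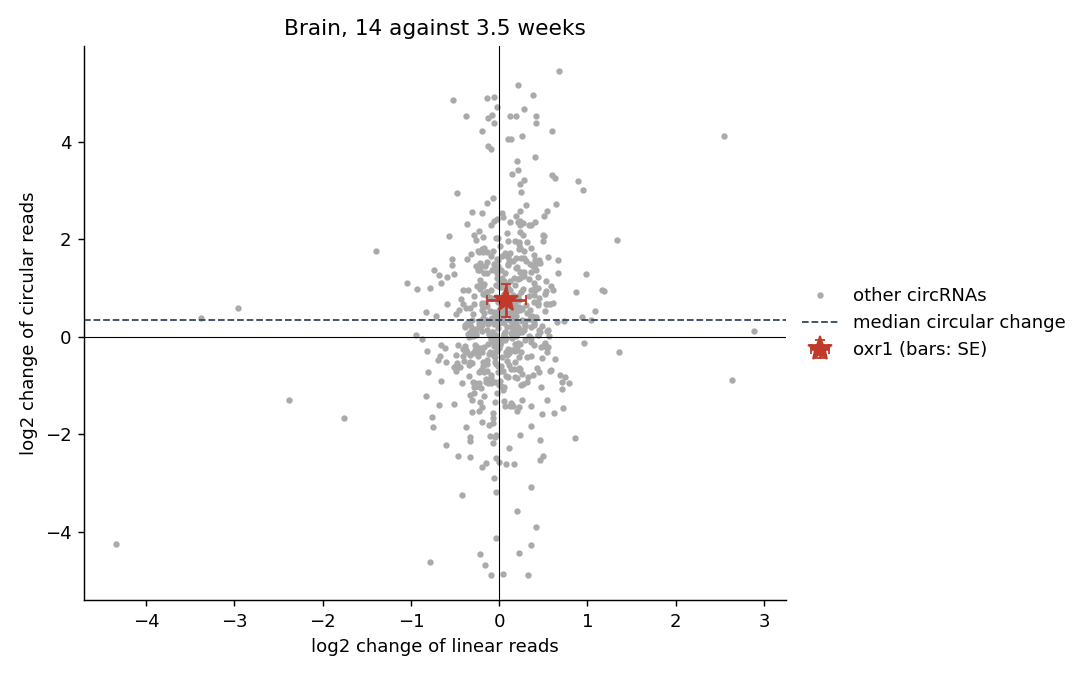
Log2 change between 14 and 3.5 weeks in brain of linear reads (horizontal) and circular reads (vertical) for 638 circRNAs in both fits, with SE bars for oxr1 (star) and the median circular change of 0.34 (dashed). The star sits at 0.08 and 0.75, inside the cloud of the other circRNAs.

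Muscle held far fewer reads of both kinds. Circular reads numbered 2 and 2 at 3.5 weeks, 10 and 9 at 8.5 weeks, and 13 and 3 at 14 weeks, in libraries 1 and 3 of the younger ages and 1 and 2 of the oldest. Those counts gave 25.9 and 19.5 CPM at 3.5 weeks, 71.3 and 80.6 at 8.5 weeks, and 126 and 37.2 at 14 weeks. Both later ages lay above 3.5 weeks in every library, but each rests on 4 reads at 3.5 weeks. How many other muscle circRNAs separated in this way, with 2 libraries per age, was not counted. The differences did not pass over the 292 muscle circRNAs tested: log2 1.82 for 14 against 3.5 weeks (SE 1.21, edgeR adjusted p = 0.514), 1.70 for 8.5 against 3.5 weeks (SE 1.20, edgeR adjusted p = 0.381) and 0.12 for 14 against 8.5 weeks (SE 1.08, edgeR adjusted p = 1). The share of muscle circRNAs called was 0.342% for 14 against 3.5 weeks and 1.37% for 8.5 against 3.5 weeks. Their median log2 change was 0.74 and 1.23. Without library 1 of 14 weeks, the log2 change of oxr1 for 14 against 3.5 weeks was 0.71 in place of 1.82 (edgeR adjusted p = 0.905) beside a median of 0.72; that library held 13 of the 16 circular reads of that age.

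Linear reads of oxr1 in muscle numbered 1 and 8 at 3.5 weeks, 14 and 10 at 8.5 weeks, and 10 and 7 at 14 weeks. In CPM, both later ages were above 3.5 weeks here too, where library 1 held a single read. How many other positions separated in this way was not counted. No step passed: log2 0.92 for 14 against 3.5 weeks (SE 0.88, edgeR adjusted p = 0.776, 2.71% of 1253 positions called), 0.96 for 8.5 against 3.5 weeks (SE 0.85, edgeR adjusted p = 0.595, 5.27% called) and -0.04 for 14 against 8.5 weeks (SE 0.79, edgeR adjusted p = 0.997, 0.479% called). Without library 1 of 3.5 weeks the first was 0.24, and without library 3 of that age 2.72. Pooled shares were 30.8% at 3.5 weeks (exact binomial 95% interval 9.09% to 61.4%), 44.2% at 8.5 weeks (29.1% to 60.1%) and 48.5% at 14 weeks (30.8% to 66.5%). Neither the share of 14 against 3.5 weeks (log2 ratio 0.60, SE 1.79, edgeR adjusted p = 1, 0% called) nor that of 8.5 against 3.5 weeks passed (0.56, SE 1.74, edgeR adjusted p = 0.988, 0.342% called). The p-values of oxr1 in the authors' deposited table are 0.652 for adult against young muscle and 0.672 for old against adult muscle.

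Brain exceeded muscle in linear reads of oxr1. On linear totals, brain libraries had 540 ± 97.2 CPM (SD, n = 9; range 420.1 to 705) and muscle libraries 81.2 ± 37.9 (SD, n = 6; range 10.4 to 115), and the tissues did not overlap. How many other positions separated the tissues on this scale was not counted. With TMM factors over all 15 libraries these became 354 ± 63.9 in brain and 150 ± 67.0 in muscle. The fit as the mean over the ages gave a log2 difference of 1.29 (SE 0.25, edgeR adjusted p = 2.52e-05), while 72.8% of the 1771 positions were called and 47.9% were called higher in brain. On linear totals without TMM the difference was 2.80 (SE 0.23, edgeR adjusted p = 7.01e-13), since this scaling moved the median of all positions to 2.19, against 0.72 with TMM. Relative to that median, oxr1 was 0.57 higher in brain with TMM and 0.61 higher without. The difference was 1.94 (edgeR with TMM) without library 3 of muscle at 3.5 weeks, and 1.20 without libraries 2 and 3 of brain at 3.5 weeks (edgeR adjusted p = 0.000133). By age it was 1.97 at 3.5 weeks (adjusted p = 0.000812, 61.9% of positions called), 1.00 at 8.5 weeks (adjusted p = 0.0213, 64.4% called) and 0.90 at 14 weeks (adjusted p = 0.0670, 55.8% called, edgeR throughout). A difference between the tissues in the step of 14 against 3.5 weeks did not pass (interaction log2 -1.07, SE 0.70, edgeR adjusted p = 0.412, 2.82% called).

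Circular reads of oxr1 followed the same order, as a description. On linear totals they averaged 402 ± 104 CPM in brain and 63.7 ± 45.8 in muscle, and with TMM 263 ± 65.1 in brain and 118 ± 87.6 in muscle (SD, n = 9 and 6). The lowest brain library had 271 CPM on linear totals and the highest muscle library 134. How many other circRNAs separated the tissues on that scale was not counted. With TMM the tissues overlapped, since the highest muscle library, at 268 CPM, was above the lowest of brain, at 180. The log2 difference was 1.37 (SE 0.42) with TMM, where 23.1% of 896 circRNAs were called, and 2.87 (SE 0.37) without. The median of all circRNAs tested was 1.16 with TMM, where 48.9% had a larger difference than oxr1, and 2.00 without. Relative to the median, oxr1 was 0.21 higher in brain with TMM and 0.87 higher without. The former value moved with the circRNAs and libraries kept, mainly through the median. With TMM and a minimum of 30 reads it was 1.44, beside a median of -0.08, and with no filter 0.30. DESeq2 gave 1.28, beside a median of 0.40. Without libraries 2 and 3 of brain at 3.5 weeks, the log2 difference of oxr1 was 1.42 and the median 0.41, so that oxr1 stood 1.01 above it. In muscle oxr1 ranked 69th by mean CPM, and it made up 1.43% of all circular reads in brain and 0.272% in muscle. The circular share was 43.1% pooled over brain (exact binomial 95% interval 39.9% to 46.3%) and 43.8% over muscle (33.3% to 54.7%), a log2 ratio difference of 0.07 (SE 0.62), where 3.91% of 896 circRNAs were called. The 95% interval of that difference in the fit, from -1.14 to 1.28 on the log2 scale, leaves room for a difference in either direction. Without libraries 2 and 3 of brain at 3.5 weeks, the log2 ratio difference was 0.21.

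Of the TLDc family, oxr1 itself was the one host listed. The V-ATPase list of 27 genes had 3 hosts, atp6v1h, a subunit of the pump, dmxl1, which helps to assemble it, and rmc1, a subunit of an endosomal exchange factor complex that is no part of the pump. The retromer list of 14 genes had vps35, the core of the complex that recycles receptors from endosomes, with which human OXR1 is known to act. The 36 antioxidant enzymes had gclc, of glutathione synthesis, and msrab, a methionine sulfoxide reductase. The 32 genes of the oxidative stress response had keap1, mapk8b, ppargc1a and sirt1.

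Between 14 and 3.5 weeks in brain, 0 of the 3 circRNAs of these lists with enough circular reads passed in edgeR. For linear reads 0 of the 15 positions passed, where 0.156% of all circRNAs and 2.85% of all positions tested passed. Those 3 were vps35.1 and 2 of rmc1, which is no part of the V-ATPase. The 15 positions include those of rmc1 as well. The circRNA vps35.1 had 111 circular and 1430 linear reads in brain, a share of 7.20%, with a log2 circular change of 0.52 (SE 0.56) and a linear change of -0.00 (SE 0.15). From rmc1, 2 circRNAs that begin 5 bp apart had 85 and 64 circular reads in brain. For rmc1.1 the log2 change was -0.37 (SE 0.60) and for rmc1.2 it was -0.52 (SE 0.70). The circRNA of atp6v1h had 9 circular reads in brain beside 2756 linear reads, and that of gclc 9 beside 480.

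Of the 4 stress response hosts, keap1, mapk8b and ppargc1a had circular reads in muscle and 0 in brain, and sirt1 had 5 in brain and 0 in muscle. Of all 1810 circRNAs, 7.73% had circular reads in muscle and 0 in brain, and 43.4% had them in brain and 0 in muscle. The circRNA of keap1, the adaptor that sends the transcription factor NRF2 to degradation, had 0 circular reads in brain beside 512 linear reads, against 21 beside 352 in muscle. That of mapk8b, a stress-activated kinase, had 0 beside 581 in brain and 39 beside 154 in muscle. A count of 0 allows a brain share of up to 0.586% for keap1 and 0.516% for mapk8b (3 counts over the 9 libraries). Both entered the table through their muscle reads, so their difference between the tissues is a description with no test.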

How the data were processed

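Per the file headers, the deposited tables hold, for each circRNA and library, the raw count of back-splice reads and that of linear reads. The authors also deposited p-values for 4 comparisons of neighbouring ages. Their header calls the test bbTest and does not say that they are adjusted. STAR 2.5.2b was used per the submitters' processing notes. No source used here gives the circRNA caller, the genome build or how linear reads were defined. Columns that belong to no listed library numbered 0.

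Counts were fitted with edgeR 4.0.16 quasi-likelihood F tests (R 4.3.3) with Benjamini-Hochberg adjustment over all features with 10 or more reads, all ages of a tissue in 1 fit. Library sizes with TMM factors came from the linear counts. For the share, each library entered with a circular and a linear column and a term of its own. Each SE was taken as the log2 change over the square root of F. DESeq2 1.42.0 was an alternative. The scripts were tested on simulated counts with known changes. Intervals of shares are exact binomial at 95% and, like floors of 3 counts, cover counting error only. Those of the linear ratios and of the log2 ratio difference between tissues come from the edgeR fits and include the fitted dispersion.

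The gene, the 5 pathway lists and the tests were chosen with earlier results of these data known. Besides oxr1, the genes named are its neighbours on the chromosome, the 2 circRNAs above and below it in brain, the 5 most like it and up to 4 members of each list with the most reads; bace1, LOC107394695.1 and cadm1a were named after their values were seen. Replicate libraries were not identical, and each pair differed by more than sampling noise. Sequences are not used here.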

Additional observations from a re-analysis of the deposited data

How the results depend on the processing

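For 21 log2 values of oxr1, refits gave 314 alternative values, of which 296 kept their direction, and no test crossed its threshold. The age steps of a tissue came from the same refit, so these values are not independent. The linear difference between brain and muscle passed in all of its refits (with 1 library left out, 1.07 to 1.94). With TMM of the circular counts, the brain circular change was 0.19 for 8.5 against 3.5 weeks and 0.51 for 14 against 3.5 weeks, and the circular difference of brain from muscle was 2.98, or 2.87 on linear totals. Without both brain libraries of 3.5 weeks that had high muscle marker shares, chosen after seeing the data, the brain share changed by 0.030 for 8.5 against 3.5 weeks and 0.26 for 14 against 3.5 weeks. The brain linear change of 14 against 8.5 weeks was 0.029 on linear totals. With 1 library left out, the brain linear change ranged from -0.052 to 0.28 for 8.5 against 3.5 weeks, from -0.25 to 0.15 for 14 against 8.5 weeks and from -0.15 to 0.25 for 14 against 3.5 weeks. In muscle, 14 against 8.5 weeks ranged from -1.04 to 0.72 for circular reads, from -0.16 to 0.040 for linear reads and from -0.88 to 0.69 for the share. The muscle share ranged from -1.26 to 1.62 for 8.5 against 3.5 weeks and from -1.17 to 1.71 for 14 against 3.5 weeks. Where an arm kept 1 library, it was assumed to vary like the others. The causes were not tested. Of the 5 circRNAs most like oxr1, 4 remained with a pseudocount of 1 or 50 CPM or a minimum of 50 reads, and 2 with a minimum of 200.

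Same-numbered brain libraries did not deviate together (correlations -0.20 to 0.05 over 9 pairs), and 0 of 9 correlated best with their own number. In muscle the correlations were -0.09 to 0.02 over 4 pairs, and 1 of 6 libraries correlated best with its own number. With 2 muscle libraries per age, the deviations of an age mirror each other, so these muscle values are not independent and say little about pairing. Same-numbered libraries of brain and muscle were not compared. With the replicate block the brain values of oxr1 for 14 against 3.5 weeks were 0.75 (circular), 0.07 (linear) and 0.68 (share), and calls went from 1 to 0 for circular and from 50 to 48 for linear reads. In muscle the linear change of 14 against 8.5 weeks was 0.36 with the block, and the circular change of 14 against 3.5 weeks 2.39.

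Numbers of calls moved by more than 1.5 times in several fits. For brain circular reads of 14 against 3.5 weeks they were 1, and 0 with DESeq2, TMM of the circular counts or no filter. For brain linear reads of that step they were 50, and 23 when library 3 of 3.5 weeks was left out, 19 for library 2 and 22 for library 3 of 14 weeks, and 6 without both high-marker libraries of 3.5 weeks. That exclusion gave 9 in place of 46 for 8.5 against 3.5 weeks. For muscle circular reads of 8.5 against 3.5 weeks they were 4, and 26 with DESeq2, 24 on linear totals, 12 with the block and 0 without either library of 8.5 weeks. For the muscle share of that step they were 1, and 60 with the beta-binomial test.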
